A study of Homo sapiens with 6 samples.

Results

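The genes described here encode the machinery of RNA polymerase I (Pol I) and RNA polymerase III (Pol III): the subunits of both enzymes and factors that work with them at their genes. A probe set belonged to the group when the array's gene table gave it a single gene symbol and that symbol was 1 of 31 chosen for this role. This gave 94 probe sets of 30 genes, out of 49395 probe sets in all and 18132 genes with a single-symbol probe set. The only probe set of POLR3E, the remaining gene, was listed under 2 gene identifiers, so it was kept apart and is given separately. HCT116 cells, a human colorectal cancer line, had been transduced with lentivirus carrying a short hairpin RNA against PNO1 (sh-PNO1, 3 samples) or a control short hairpin RNA (sh-Ctrl, 3 samples), and RNA was taken 72 h later. Both groups thus carried a lentivirus and a hairpin, the labels name a single PNO1 hairpin group, and no untransduced cells were analysed here. PNO1 is a nucleolar assembly factor of the small ribosomal subunit. One Affymetrix array was run per sample. Nothing in the labels ties the 3 samples of a group to separate cultures; every p-value here therefore rests on array-to-array spread that may be technical.

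Pol I transcribes a single kind of gene, the repeated ribosomal DNA, into the long precursor of the ribosomal RNAs in the nucleolus. UBTF coats the ribosomal DNA, the promoter factor SL1 (the TAF1 proteins with TBP) marks the start site, and RRN3 binds the Pol I that is able to start. Pol III makes transfer RNAs and the smallest ribosomal RNA. On transfer RNA genes TFIIIC binds inside the gene and places TFIIIB, which in turn brings in Pol III. Both enzymes feed ribosome production and growth, and they share a set of subunits.

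The group labels and some cell type genes were checked first. The brightest PNO1 probe set had intensities of 105, 108 and 105 in sh-PNO1 cells, against 535, 535 and 532 in sh-Ctrl cells. PNO1 thus stood at 19.8% of its control level (log2 difference −2.33 ± 0.04 SE, limma adjusted p = 3.32e-07), and an exact two-sided permutation test gave p = 0.1, the smallest that 3 arrays against 3 allow. The epithelial genes EPCAM, KRT8, KRT18 and KRT19 were bright on all arrays, whereas CEACAM5 (9.65 to 10.5) and VIL1 (3.99 to 5.29) were dim, below the array medians. The 10 measured genes of leukocytes, endothelium and fibroblasts lay between 3.45 and 39.7. The array medians lay between 25.6 and 25.9, and log2 values of 2 arrays correlated at 0.998 or more inside a group and at 0.992 to 0.993 across the groups. A sign of RNA quality, the log2 excess of the 3' over the 5' actin control probe set, was 2.25 for sh-PNO1 replicate 2 and 1.73 to 1.87 for the rest. Without that array 9 of the 30 genes were higher and 5 lower, against 10 and 6 with it. For the GAPDH control the same excess was close to 0 but did not overlap between the groups. It was −0.077 to −0.056 in sh-PNO1 and −0.028 to −0.013 in sh-Ctrl arrays.

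Among the 30 genes 9 of the 15 Pol I and Pol III subunits were higher in sh-PNO1 cells, 1 was lower and 5 did not pass the test. Of the 15 factors among them 1 was higher, 5 were lower and 9 did not pass. The difference between subunits and factors was not tested. The subunits that were higher were POLR1B, POLR1C, POLR1E and POLR1F of Pol I, and POLR3A, POLR3B, POLR3C, POLR3D and POLR3G of Pol III. Of the initiation factors, RRN3, UBTF and the SL1 subunit TAF1A of Pol I were lower, as were GTF3C2 and GTF3C4 of TFIIIC. TAF1C, another SL1 subunit, was higher, and POLR1G was the Pol I subunit that was lower. Promoter factors measured outside the 30 genes did not follow this split. Of them GTF3A, GTF3C6, SNAPC4 and ZNF143 were higher, SNAPC5 was lower, and TBP, SNAPC1, SNAPC2 and SNAPC3 did not pass by their brightest probe sets. GTF3A rose on 1 of its 3 probe sets, and 2 of the 5 SNAPC3 probe sets passed as lower. Of the subunits outside the 30 genes POLR3GL, POLR2F and POLR2H were higher, and CRCP, POLR2E, POLR2K and POLR2L did not pass. For POLR2L 1 of 3 probe sets passed as lower. A gene was counted by its brightest probe set, the one with the highest mean over the 6 arrays, and passed at a limma adjusted p under 0.05 over all 49293 probe sets tested. By this rule 10 of the 30 genes rose, 6 fell and 14 did not pass. Over all genes 18.4% rose and 13.2% fell, so passing genes were 53.3% of these 30 and 31.6% of all genes. The changes were small: the largest log2 difference was −0.86, the median size was 0.19 against 0.11 over all genes, and the median with its sign was 0.08 against 0.03. In RNA of whole cultures, fewer cells expressing a gene and less RNA per cell cannot be told apart.

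**Figure D1:**
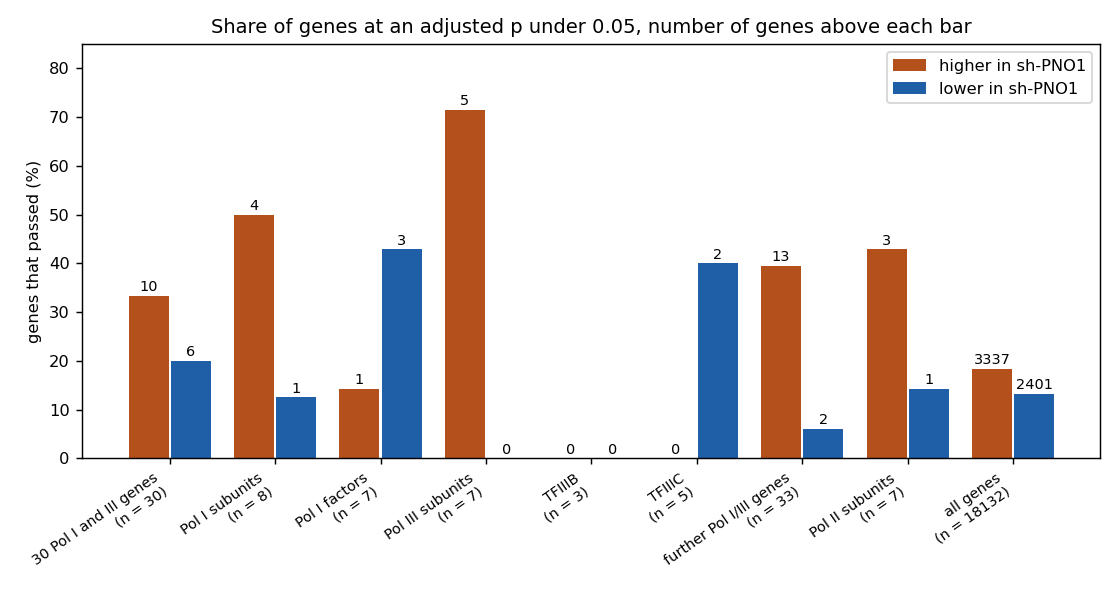
Share of genes that passed an adjusted p of 0.05 in limma, in percent, higher (orange) or lower (blue) in sh-PNO1 than in sh-Ctrl cells, for the 30 genes, for each role, for further Pol I and Pol III genes, for Pol II subunits and for all genes, with the number of genes above each bar. Of Pol III subunits 5 rose and 0 fell, and of Pol I factors 1 rose and 3 fell.

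The groups of arrays did not overlap in 20 of the 30 genes, 13 with all sh-PNO1 arrays above and 7 with all below. Over all genes 44.7% showed no overlap, 26.3% above and 18.4% below. Over the 94 probe sets 30 rose and 19 fell, against 14.8% and 13.2% of all probe sets. No gene had probe sets that passed in both directions. Of the 15 genes that passed and had more than 1 probe set, 8 did so with all of their probe sets, in 1 direction: POLR1B, POLR1E, POLR1G, RRN3, TAF1A, POLR3C, POLR3D and GTF3C4. Another 4 genes whose brightest probe set did not pass had another one that did: POLR1D, TAF1B, TTF1 and BRF1.

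**Figure D2:**
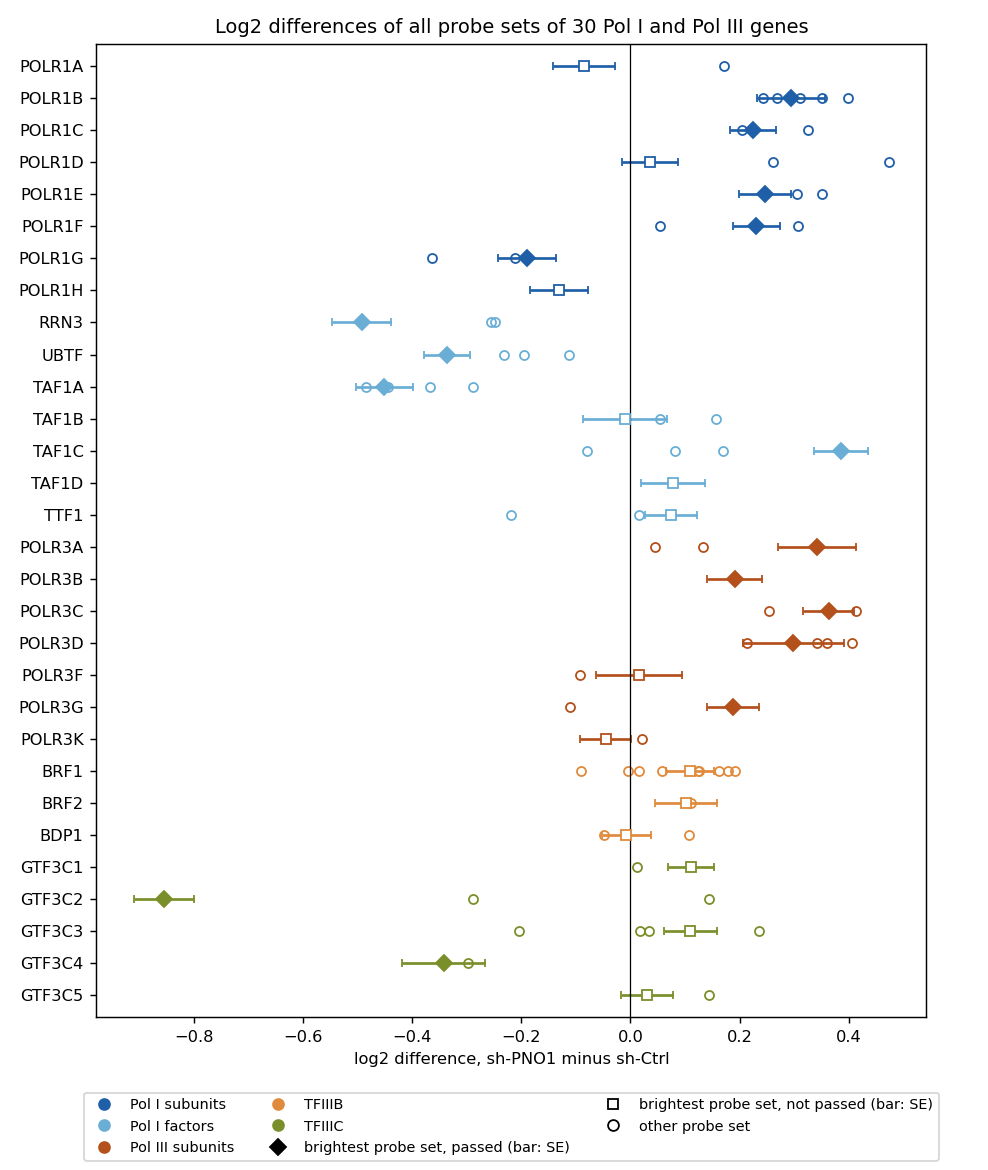
Log2 difference (sh-PNO1 minus sh-Ctrl) of all 94 probe sets, 1 row per gene, coloured by role; diamonds and squares are the brightest probe set of a gene with its SE, filled where it passed, and open circles are the other probe sets. By their brightest probe sets RRN3, UBTF, TAF1A, GTF3C2 and GTF3C4 lie left of 0, and the passing subunits lie right of it except POLR1G.

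No promoter window was read for BRF2, POLR1E, POLR3D and POLR3G. Those of the other 27 of the 31 genes came from RefSeq (build GRCh38.p14, 250 bases before to 50 after the start). Some of these genes have several starts, which gave 39 windows in all. They were searched on both strands for the E-box CACGTG, the CCAAT box, the ETS core CGGAAG and the TATA box TATAAA; the ETS core on both strands can share letters with itself. The ETS core was in 53.8% of the members' windows, against 19.5% of all 35116 windows and 24.1% of the windows of genes on the array. Of the genes with a window it was in 5 of 7 that rose, 4 of 6 that fell and 8 of 13 that did not pass. The E-box was in 15.4% of the members' windows and 7.26% of all, the CCAAT box in 33.3% and 34.6%, and TATAAA in 2.56% and 11.5%. The sets of all windows and of genes on the array were not matched to the members' windows. A match describes the letters and is not a site. The 4 windows below belong to 2 genes that fell, GTF3C2 and TAF1A, and 2 that rose, POLR1C and POLR1F, with matches in capitals.
GTF3C2 (chr2:27356715-27357014, minus strand): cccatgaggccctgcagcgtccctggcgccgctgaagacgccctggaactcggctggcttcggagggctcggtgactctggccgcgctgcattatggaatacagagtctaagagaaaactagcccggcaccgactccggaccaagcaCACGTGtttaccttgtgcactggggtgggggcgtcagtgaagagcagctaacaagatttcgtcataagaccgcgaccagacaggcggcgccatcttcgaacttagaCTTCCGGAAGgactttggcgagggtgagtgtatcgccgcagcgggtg
TAF1A (chr1:222589884-222590183, minus strand): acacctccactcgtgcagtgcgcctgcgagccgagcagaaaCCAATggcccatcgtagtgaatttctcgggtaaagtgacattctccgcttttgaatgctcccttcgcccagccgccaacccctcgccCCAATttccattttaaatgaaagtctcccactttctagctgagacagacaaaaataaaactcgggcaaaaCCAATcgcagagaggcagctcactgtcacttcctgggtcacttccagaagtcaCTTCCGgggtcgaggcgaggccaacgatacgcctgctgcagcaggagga
POLR1C (chr6:43516839-43517138, plus strand): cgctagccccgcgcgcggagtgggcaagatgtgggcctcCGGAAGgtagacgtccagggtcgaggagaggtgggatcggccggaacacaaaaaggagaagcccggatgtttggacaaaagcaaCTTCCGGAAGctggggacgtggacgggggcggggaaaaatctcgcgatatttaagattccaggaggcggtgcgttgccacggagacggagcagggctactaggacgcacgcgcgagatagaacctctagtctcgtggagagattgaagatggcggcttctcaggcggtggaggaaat
POLR1F (chr7:19708988-19709287, minus strand): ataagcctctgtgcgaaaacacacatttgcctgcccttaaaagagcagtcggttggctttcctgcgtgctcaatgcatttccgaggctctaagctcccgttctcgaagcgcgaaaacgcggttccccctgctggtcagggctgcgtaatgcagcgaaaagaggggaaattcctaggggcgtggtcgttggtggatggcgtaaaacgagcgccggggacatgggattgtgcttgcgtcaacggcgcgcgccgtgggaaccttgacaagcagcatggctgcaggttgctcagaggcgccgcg
The GTF3C2 window holds an E-box that begins 103 bases before the start and the ETS core on both strands just after it, from bases 4 and 8. The TAF1A window has 3 CCAAT boxes, at bases −209, −122 and −52, and an ETS core at base 2. The POLR1C window has the ETS core at bases −211, −127 and −123. The POLR1F window has no match to these 4 motifs.

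Among the Pol I subunits 4 of 8 rose, 1 fell and 3 did not pass. POLR1B, the second-largest subunit, which forms the catalytic cleft with POLR1A, had intensities of 311, 299 and 285 in sh-PNO1 cells, against 232, 263 and 236 in sh-Ctrl cells. All 3 sh-PNO1 arrays were above all 3 sh-Ctrl arrays, the log2 difference was 0.29 ± 0.06 SE (adjusted p = 0.00905), and all 6 of its probe sets rose, by 0.24 to 0.40. POLR1A, the largest subunit, had intensities of 135, 136 and 140 in sh-PNO1 cells and 140, 157 and 140 in sh-Ctrl cells. The groups overlapped and POLR1A did not pass (−0.08 ± 0.06 SE, adjusted p = 0.318), nor did its second probe set (0.17, adjusted p = 0.352).

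POLR1C and POLR1D form the assembly platform that Pol I shares with Pol III. POLR1C had intensities of 357, 370 and 373 in sh-PNO1 cells, against 320, 309 and 314 in sh-Ctrl cells. The groups did not overlap (0.22 ± 0.04 SE, adjusted p = 0.00556), and 2 of 3 probe sets rose. For its partner POLR1D the brightest probe set had 396, 377 and 355 in sh-PNO1 cells and 364, 365 and 372 in sh-Ctrl cells, which overlapped (0.04 ± 0.05 SE, adjusted p = 0.658). The second POLR1D probe set had 243, 257 and 277 in sh-PNO1 cells, against 221, 211 and 215 in sh-Ctrl cells (0.26 ± 0.06 SE, adjusted p = 0.0101). The third had 177, 169 and 169 in sh-PNO1 cells, against 124, 118 and 129 in sh-Ctrl cells (0.47 ± 0.05 SE, adjusted p = 0.000251). So 2 of the 3 POLR1D probe sets rose while the brightest did not pass, and the mean of the 3 passed as higher (0.26, adjusted p = 0.000536).

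POLR1E and POLR1G form a pair of Pol I-specific subunits that resembles a general initiation factor of Pol II, and POLR1F belongs to the stalk. POLR1E had intensities of 310, 318 and 306 in sh-PNO1 cells, against 251, 274 and 262 in sh-Ctrl cells (0.25 ± 0.05 SE, adjusted p = 0.00625). POLR1G had 280, 273 and 259 in sh-PNO1 cells, against 296, 325 and 304 in sh-Ctrl cells (−0.19 ± 0.05 SE, adjusted p = 0.0322). The 2 partners thus moved in opposite directions, each on all 3 of its probe sets and with no overlap between the groups. The POLR1G call was lost on its brightest probe set without sh-Ctrl replicate 2 or 3 or sh-PNO1 replicate 2 or 3 (adjusted p = 0.0708 to 0.101) and kept with its probe sets averaged (−0.26, adjusted p = 0.000402).

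POLR1F had intensities of 548, 572 and 543 in sh-PNO1 cells, against 471, 473 and 473 in sh-Ctrl cells, with no overlap (0.23 ± 0.04 SE, adjusted p = 0.00474), and 2 of its 3 probe sets rose. POLR1H, a small subunit used in cleaving the transcript within the enzyme, had 277, 309 and 302 in sh-PNO1 cells and 318, 327 and 327 in sh-Ctrl cells. All sh-PNO1 arrays were below the sh-Ctrl arrays, but POLR1H did not pass (−0.13 ± 0.05 SE, adjusted p = 0.106). With a variance trend and a robust prior it passed as lower (adjusted p = 0.0419), and over the other alternatives its adjusted p lay between 0.0611 and 0.221.

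**Figure D3:**
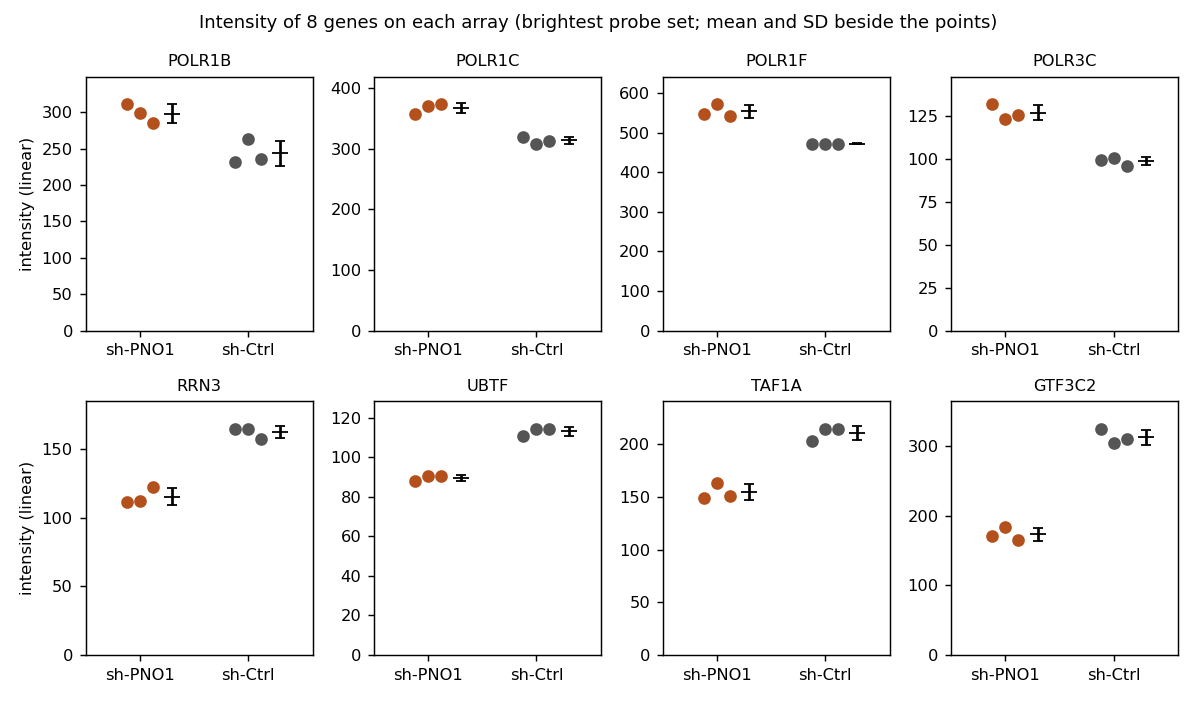
Intensity (linear scale from 0) of the brightest probe set of 8 genes on each array, sh-PNO1 in orange and sh-Ctrl in grey, with the mean and SD beside the points (n = 3 each). The groups do not overlap in any of the 8; POLR1B, POLR1C, POLR1F and POLR3C are higher and RRN3, UBTF, TAF1A and GTF3C2 lower in sh-PNO1 cells.

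Of the 7 Pol I factors 3 fell, 1 rose and 3 did not pass. RRN3, known as the factor that links Pol I activity to growth signals, had intensities of 111, 112 and 123 in sh-PNO1 cells, against 165, 165 and 157 in sh-Ctrl cells. It stood at 71.1% of the control level (−0.49 ± 0.05 SE, adjusted p = 0.000314), and its other 2 probe sets also fell, with log2 differences of −0.25 and −0.26. A further probe set listed under RRN3 together with its pseudogene copies RRN3P1 and RRN3P2, which is no member, went the other way, with a mean of 41.4 ± 1.91 in sh-PNO1 cells and 30.4 ± 2.67 in sh-Ctrl cells (SD, n = 3 each; 0.45 ± 0.07 SE, adjusted p = 0.00222). Since near-identical copies of RRN3 exist, the size of its change is uncertain.

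UBTF, the architectural factor of active ribosomal DNA, had intensities of 88.0, 90.5 and 90.6 in sh-PNO1 cells, against 111, 115 and 115 in sh-Ctrl cells (−0.34 ± 0.04 SE, adjusted p = 0.000669). The groups did not overlap, and 3 of its 4 probe sets fell, while the other stood at −0.11 (adjusted p = 0.136). TTF1, the factor that ends Pol I transcription, had 156, 160 and 156 in sh-PNO1 cells and 157, 148 and 144 in sh-Ctrl cells, which overlapped (0.07 ± 0.05 SE, adjusted p = 0.298). One of the 3 TTF1 probe sets fell (−0.22, adjusted p = 0.0142) and the mean of the 3 did not pass (−0.04, adjusted p = 0.371).

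The 4 SL1 subunits did not move as a unit. TAF1A had intensities of 149, 163 and 151 in sh-PNO1 cells, against 203, 214 and 215 in sh-Ctrl cells, 73.2% of the control level (−0.45 ± 0.05 SE, adjusted p = 0.000442). All 5 TAF1A probe sets fell, with log2 differences between −0.29 and −0.49. TAF1C had 97.1, 93.1 and 100.7 in sh-PNO1 cells, against 76.4, 71.6 and 74.7 in sh-Ctrl cells (0.39 ± 0.05 SE, adjusted p = 0.000756). The groups did not overlap, but only 2 of 4 TAF1C probe sets rose, the lowest stood at −0.08, and with all 4 averaged TAF1C did not pass (0.14, adjusted p = 0.0506). TAF1B stood at −0.01 ± 0.08 SE (adjusted p = 0.943), with 1 of 3 probe sets higher (0.16, adjusted p = 0.0362). TAF1D stood at 0.08 ± 0.06 SE (adjusted p = 0.38) on its only single-symbol probe set.

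Pol III subunits were higher or did not pass: 5 of 7 rose and 0 fell. POLR3C, which belongs to the Pol III-specific subcomplex used in initiation, had intensities of 132, 123 and 125 in sh-PNO1 cells, against 98.9, 100.4 and 96.0 in sh-Ctrl cells. The groups did not overlap (0.36 ± 0.05 SE, adjusted p = 0.000732), and all 3 POLR3C probe sets rose, by 0.25 to 0.41. POLR3A, the largest subunit, had 90.4, 96.9 and 97.3 in sh-PNO1 cells, against 70.8, 71.3 and 83.0 in sh-Ctrl cells (0.34 ± 0.07 SE, adjusted p = 0.00811). Neither of the other 2 POLR3A probe sets passed (0.13 and 0.04). POLR3B, the second-largest subunit, had 114, 124 and 121 in sh-PNO1 cells, against 101, 108 and 105 in sh-Ctrl cells (0.19 ± 0.05 SE, adjusted p = 0.0229).

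POLR3D had intensities of 100.9, 82.8 and 86.9 in sh-PNO1 cells, against 75.7, 65.4 and 78.8 in sh-Ctrl cells (0.30 ± 0.09 SE, adjusted p = 0.046), and all 5 of its probe sets rose, by 0.21 to 0.41. POLR3G, a subunit that is replaced by its paralogue POLR3GL in an alternative form of the enzyme, had 151, 151 and 156 in sh-PNO1 cells, against 138, 136 and 127 in sh-Ctrl cells (0.19 ± 0.05 SE, adjusted p = 0.0205). Its second, dim probe set stood at −0.11 (adjusted p = 0.455), and the mean of both did not pass (0.04, adjusted p = 0.66). Single arrays decided 3 of these calls. POLR3B did not pass without sh-Ctrl replicate 1 or 3 or sh-PNO1 replicate 2 or 3 (adjusted p = 0.0596 to 0.0785). POLR3D did not pass on its brightest probe set without any one array but sh-PNO1 replicate 2 (0.0586 to 0.147). With all arrays and its probe sets averaged POLR3D passed as higher (0.32, adjusted p = 0.000724). POLR3G did not pass without replicate 3 of sh-PNO1 (0.0637) or of sh-Ctrl (0.0594).

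POLR3F, which lies in the same subcomplex as POLR3C, had intensities of 78.6, 93.9 and 84.9 in sh-PNO1 cells and 81.6, 91.8 and 80.9 in sh-Ctrl cells, which overlapped (0.02 ± 0.08 SE, adjusted p = 0.907). POLR3K, a small subunit needed for termination and transcript cleavage, had 345, 371 and 368 in sh-PNO1 cells and 379, 368 and 370 in sh-Ctrl cells (−0.05 ± 0.05 SE, adjusted p = 0.526). The probe set of POLR3E, the partner of POLR3D, had 208, 214 and 225 in sh-PNO1 cells and 201, 206 and 209 in sh-Ctrl cells and did not pass (0.07 ± 0.05 SE, adjusted p = 0.343).

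None of the 3 TFIIIB genes passed on its brightest probe set. BRF1, the TFIIIB subunit of transfer RNA genes, had intensities of 67.5, 65.7 and 69.9 in sh-PNO1 cells and 63.3, 63.2 and 61.7 in sh-Ctrl cells. The sh-PNO1 arrays were all above the sh-Ctrl arrays, yet BRF1 did not pass (0.11 ± 0.04 SE, adjusted p = 0.108), and 1 of its 10 probe sets did (0.18, adjusted p = 0.0181). BRF2, its counterpart at genes whose promoter lies upstream, stood at 0.10 ± 0.06 SE (adjusted p = 0.236), and BDP1, which joins either form, at −0.01 ± 0.04 SE (adjusted p = 0.925).

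Of the 5 TFIIIC genes 2 fell and 3 did not pass. GTF3C2, a subunit of the TFIIIC module that binds the B box inside transfer RNA genes, had intensities of 171, 183 and 165 in sh-PNO1 cells, against 325, 304 and 309 in sh-Ctrl cells. It stood at 55.3% of the control level, the largest change among the 30 genes by their brightest probe sets (−0.86 ± 0.05 SE, adjusted p = 2.4e-05). Its 3 probe sets differed. The second had 63.8, 62.2 and 66.6 in sh-PNO1 cells, against 83.8, 78.1 and 73.5 in sh-Ctrl cells (−0.29 ± 0.06 SE, adjusted p = 0.00746). The third had 36.8, 34.5 and 36.2 in sh-PNO1 cells and 32.7, 33.9 and 30.7 in sh-Ctrl cells and did not pass (0.14 ± 0.05 SE, adjusted p = 0.0832). With all 3 averaged GTF3C2 was lower by a smaller amount (−0.33, adjusted p = 0.000301) and no longer the largest change, behind TAF1A (−0.41) and POLR3C (0.34).

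**Figure D4:**
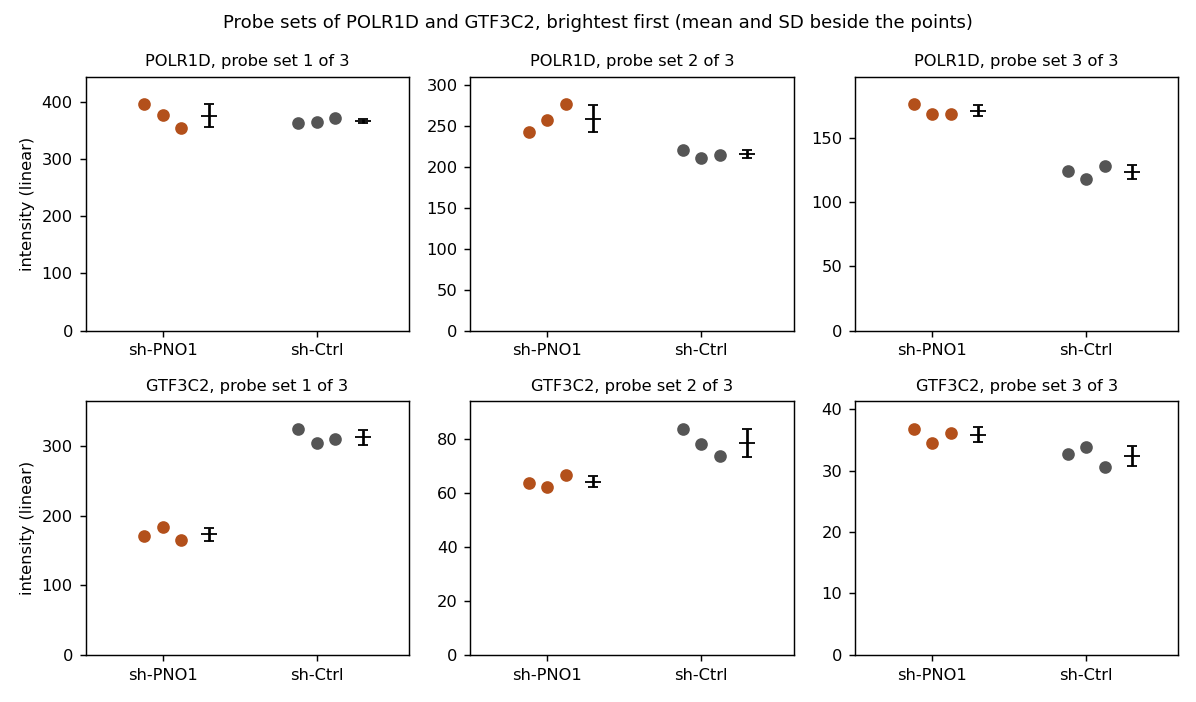
Intensity (linear scale from 0) of the 3 probe sets of POLR1D (top) and the 3 of GTF3C2 (bottom) on each array, brightest first, sh-PNO1 in orange and sh-Ctrl in grey, with the mean and SD beside the points (n = 3 each). The groups overlap only on the brightest POLR1D probe set, and the third GTF3C2 probe set lies the other way from the first and second.

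GTF3C4, another TFIIIC subunit, had intensities of 58.8, 55.3 and 65.1 in sh-PNO1 cells, against 76.1, 80.9 and 70.2 in sh-Ctrl cells (−0.34 ± 0.08 SE, adjusted p = 0.0109). The groups did not overlap, and its second probe set fell as well (−0.30, adjusted p = 0.0111). GTF3C1, the largest TFIIIC subunit, had 374, 382 and 388 in sh-PNO1 cells and 359, 347 and 354 in sh-Ctrl cells, without overlap, but did not pass (0.11 ± 0.04 SE, adjusted p = 0.0934). With a variance trend and a robust prior GTF3C1 passed as higher (adjusted p = 0.0289), and over the other alternatives its adjusted p lay between 0.0637 and 0.914. GTF3C3, a scaffold that contacts TFIIIB, stood at 0.11 ± 0.05 SE (adjusted p = 0.136) and GTF3C5 at 0.03 ± 0.05 SE (adjusted p = 0.691).

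Of 35 further genes of both systems 33 were measured (shared subunits, promoter factors and regulators); 13 rose, 2 fell and 18 did not pass, with a median log2 difference of 0.13 against 0.03 over all genes. That is 39.4% higher and 6.06% lower, against 18.4% and 13.2% of all genes. SMARCA5, counted among the 13, had probe sets that passed in both directions (0.24 on the brightest, −0.33 on the other). The largest log2 difference was that of BAZ2A, which recruits silencing enzymes to ribosomal DNA: 196, 227 and 215 in sh-PNO1 cells, against 334, 334 and 313 in sh-Ctrl cells (−0.62 ± 0.06 SE, adjusted p = 0.000234), with 2 of 3 probe sets lower. SNAPC5, of the complex that binds upstream Pol III promoters, also fell (−0.40 ± 0.06 SE, adjusted p = 0.00155, 2 of 3 probe sets), whereas its partner SNAPC4 rose on all 6 probe sets (0.29 ± 0.05 SE, adjusted p = 0.00194). SIRT7, a deacetylase that promotes Pol I transcription, rose by 0.34, with both probe sets higher. MYBBP1A, which represses it, rose by 0.30 on 1 of 5 probe sets.

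Several Pol III genes of the same list rose. POLR3GL rose by 0.33 (adjusted p = 0.00107), and MAF1, a repressor of Pol III, rose by 0.28 (adjusted p = 0.0153) on both its probe sets. SSB, the La protein that binds new Pol III transcripts, rose by 0.27 and the TFIIIC subunit GTF3C6 by 0.24. POLR2F, a subunit shared by all 3 polymerases, rose by 0.30 on 1 of 2 probe sets. The count of 13 depended on the arrays and was 8 without sh-Ctrl replicate 3. Of the 7 Pol II subunits set beside them 3 rose, POLR2I (0.37), POLR2C (0.24) and POLR2A (0.20), and 1 fell, POLR2D (−0.17). Passing genes were thus 57.1% of these Pol II subunits, against 53.3% of the 30 Pol I and Pol III genes, and higher ones 42.9% against 33.3%. The Pol II count of 4 was 2 without sh-Ctrl replicate 2.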

How the data were processed

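RNA of 3 sh-PNO1 and 3 sh-Ctrl samples was labelled as biotinylated cRNA and hybridised to Affymetrix arrays, per the labels' protocols. The deposited intensity values, linear and 1 per probe set and array, were made with RMA per the submitters' processing notes; no source used here gives its version, its background step or a genome build. Such normalisation removes any overall rise or fall of messenger RNA. log2 was taken here. Groups and replicate numbers came from the sample titles, and the labels give no batch. Of 49395 probe sets 102 controls were left out, and 44988 had 1 gene symbol in the platform's table. All 49293 others were fitted in limma (version 3.58.1, R 4.3.3; lmFit, eBayes, no covariate) with Benjamini-Hochberg adjustment, and the fit was tested on simulated data. With 200 simulated probe sets changed, it recovered 0% of log2 changes of 0.25, 68% of 0.5 and 98.5% of 1. In the real data 28.0% of all probe sets passed, far more than were changed in the simulation, so these shares may not carry over. A probe set passed at an adjusted p under 0.05. All 31 genes were to be named, PNO1, up to 10 further Pol I and Pol III genes and up to 10 Pol II subunits that passed, by size. The other measured subunits and promoter factors of the further list, and SMARCA5, were named besides. Members and lists were chosen with earlier results of these data known. A list of 20 Pol I and Pol III transcripts matched no probe set by symbol and was not analysed here. The 23 background probe sets averaged 2.53 to 773; the brightest probe sets of the 30 genes averaged 59.8 to 554 per group, above 19 to 22 of them and none above all 23, so folds can be understated. 6 probe sets listed with a member and another gene were not counted. Alternatives were a replicate block, a variance trend with robust prior, array weights, repeated quantile normalisation, equal array medians, the dimmest 30% left out, fits over genes (brightest, averaged or most variable probe set), no probe sets of suffix _x_at or _s_at, an adjusted p under 0.01, and each array left out.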

Additional observations from a re-analysis of the deposited data

How the results depend on the processing

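The counts of 10 genes higher and 6 lower ranged from 7 to 11 and from 4 to 7 over all alternatives, and 10 of the 16 genes passed in the same direction in every one: POLR1B, POLR1C, POLR1E, POLR1F, RRN3, UBTF, TAF1A, POLR3A, POLR3C and GTF3C2. With one array left out in turn, PNO1 stood at −2.35 to −2.32, and 7 to 9 genes were higher and 5 to 6 lower. The same range was 23 to 27 probe sets higher and 15 to 18 lower, 10834 to 11888 of all probe sets, 8 to 13 further genes higher and 2 to 3 Pol II subunits. Without probe sets of suffix _x_at or _s_at, which can match several transcripts, 17 probe sets were higher and 12 lower, 8711 of all probe sets passed and 8 further genes were higher; fewer probe sets were tested. At an adjusted p under 0.01 the counts were 12 probe sets lower, 8666 of all, 8 further genes higher and 2 Pol II subunits. With the most variable probe set 6 further genes were lower, TAF1B was higher (0.16), TTF1 lower (−0.22) and POLR3G stood at −0.11, as it did without _x_at and _s_at probe sets; TAF1D had none left there. The cause was not tested. The replicate numbers did not pair the arrays: same-numbered arrays had correlations of deviations of −0.04, 0.10 and −0.03. The value was 0.07 for sh-PNO1 replicate 1 with sh-Ctrl replicate 3 and 0.09 for sh-PNO1 replicate 3 with sh-Ctrl replicate 1. The remaining pairs of arrays lay between −0.05 and −0.04. With the replicate number as a block 10 genes were higher and 5 lower, POLR1G not passing (−0.19, adjusted p = 0.0511). A block in any other order was not fitted. The number of arrays limits the precision.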
